A study of Mus musculus with 15 samples.

Results

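Purkinje cells (PCs), the output neurons of the cerebellar cortex, were compared between the day of birth (P0) and postnatal day 4 (P4). The comparison used the 6 samples labelled P0 or P4, 3 at each age, out of 15 samples of a series that also covers P8, P14 and P21. The strain of all groups is given as C56/BL6 in the labels and as male C57/BL6 mice in the study's methods, and no transgene or treatment is named for any sample. PCs were cut from cerebellar sections by laser capture microdissection, a technique that excises chosen cells under a microscope, and their total RNA was amplified and sequenced. The series' design text gives 1000 PCs per sample. The study's methods state that single soma were collected from P4 onward, whereas at P0, when single cells were difficult to isolate, clusters of PCs were collected. Age and mode of capture therefore changed together between the groups and cannot be told apart by any test below. Values at P8 (3 samples, single soma like P4) are given beside the results for this reason, and P4 enters both comparisons.

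At birth, PCs have only just gathered from a broad plate of migrating cells, and their somata lie several cells deep. During the following days they settle towards a monolayer, withdraw their early processes and begin to grow the dendrite that later receives climbing and parallel fibres. The mature PC is known for inhibitory output through GABA, for spontaneous firing, and for a calcium signalling system built on metabotropic glutamate signalling, the inositol trisphosphate receptor of the endoplasmic reticulum and high levels of calcium buffers. Bergmann glia, a type of astroglia, lie between PC somata and are therefore close to any captured cell.

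Total counts on genes were 4408128 to 4687163 at P0 and 3805726 to 7814951 at P4. Genes with at least 1 count numbered 14032 to 14432 at P0 and 14259 to 15564 at P4. HTSeq counted only reads lying wholly in annotated features, so reads partly in a feature or in introns were tallied with those outside genes as without a feature. The share without a feature, of these and the counted reads, was 30.1%, 27.8% and 24.4% at P0 and 21.5%, 20.4% and 20.99% at P4, so every P0 library lay above every P4 library (exact permutation test, two-sided, p = 0.1, the smallest that 3 against 3 samples allow). At P8 this share was 22.8% ± 0.976 (SD, n = 3, as for all errors written after ± below). Levels are given as CPM, counts scaled by the effective size of each library (TMM), and replicates differed widely, with a biological coefficient of variation of 0.894 within P0 and 0.820 within P4.

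Of 14293 genes tested, 248 were higher at P4 (1.74%) and 33 were lower (0.231%) at an adjusted p below 0.05. The adjusted p values here and below are from the quasi-likelihood F test of edgeR with Benjamini-Hochberg adjustment over all genes tested. The rising genes had a median log2 fold change of 1.80 and the falling genes a median of -1.76, against 0.03 over all genes tested. Every P4 sample lay above every P0 sample in 230 of the 248 rising genes, and below in all 33 falling genes. Over all genes tested, every P4 sample lay above every P0 sample in 1304 (9.12%) and below in 863 (6.04%). A further limit is that 23 of the rising genes had no count in any P0 library, and 1 falling gene had none in any P4 library. The calls also rest on the spread shared by all 15 samples: with the 6 samples alone, 3 genes rose and 2 fell. Leaving out 1 sample at a time gave between 167 and 261 rising genes and between 19 and 65 falling genes, and 110 of the 248 and 9 of the 33 were called in each of the 6 fits. The falling count was 19 without P4 replicate 1 and 65 without P4 replicate 3.

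**Figure D1:**
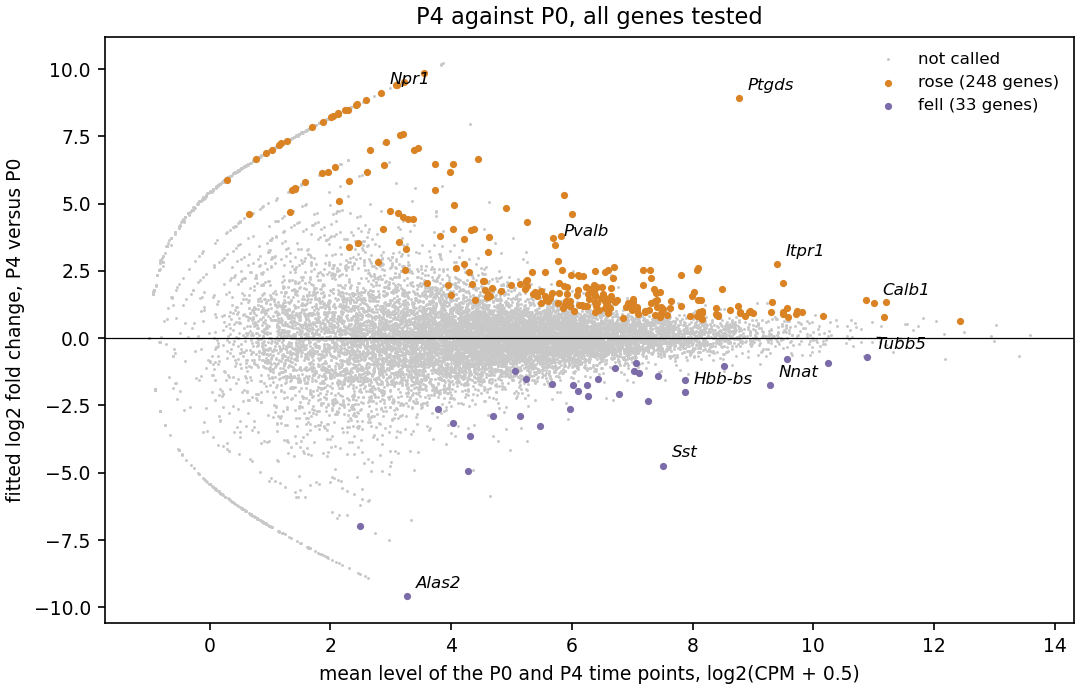
Fitted log2 fold change of P4 against P0 (vertical axis) plotted over the mean level of both ages as log2(CPM + 0.5) (horizontal axis), 1 point per gene for the 14293 genes tested. Orange points are the 248 genes that rose and purple points the 33 that fell. The curved rows at the left are genes with no or very few counts at 1 of the ages, whose fitted value is no measure of size.

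The genes that define PCs were higher at P4. Of 6 PC markers, 4 rose and none fell (median log2 fold change 1.39, against 0.03 over all genes). Over all genes tested 1.74% rose and 0.231% fell. Itpr1 (ENSMUSG00000030102, GRCm38 chr6:108213096-108551109), the inositol trisphosphate receptor through which calcium leaves the store, was at 150, 185 and 194 CPM at P0 and at 1104, 1264 and 1166 CPM at P4. The 2 ages were far apart and the replicates of each lay close together. The log2 fold change was 2.74 (SE 0.16, adjusted p = 1.24e-07), a fitted 6.67-fold rise, and the mean at P8 was 2286 CPM. Itpr1 was called in every fit that left out 1 sample and in the fit of the 6 samples alone (adjusted p = 0.0016).

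Calb1, which encodes the calcium buffer calbindin and lies at GRCm38 chr4:15881264-15908064, was at 888, 1102 and 1580 CPM at P0 and at 2543, 3836 and 2400 CPM at P4 (log2 fold change 1.30, SE 0.23, adjusted p = 0.00742). The groups did not overlap. Car8, a carbonic anhydrase related protein that binds the inositol trisphosphate receptor, was at 1029, 1560 and 1393 CPM at P0 and at 2940, 3621 and 3552 CPM at P4 (log2 fold change 1.34, SE 0.15, adjusted p = 0.000232), again without overlap. Pcp2, a PC regulator of G protein signalling, was at 934, 1273 and 836 CPM at P0 and at 2476, 4522 and 1202 CPM at P4 (log2 fold change 1.43, SE 0.33, adjusted p = 0.0358). P4 replicate 3 lay within the P0 range of Pcp2, and the call was lost without P0 replicate 1, P0 replicate 3, P4 replicate 1 or P4 replicate 2. Pcp4, which encodes a calmodulin-binding peptide, was at 1532, 1869 and 1448 CPM at P0 and at 2623, 4097 and 2125 CPM at P4, without overlap but not past the test (adjusted p = 0.0513). Ppp1r17, a later PC marker, was near the limit of detection in 5 of the 6 samples and did not pass either (0.986 ± 0.524 and 5.42 ± 8.73 CPM, SD, n = 3 each, adjusted p = 0.201). With the 6 samples alone, Itpr1 was the 1 marker called.

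Summed over the 6 markers, the level was 5326 ± 736 CPM at P0, 13160 ± 3684 CPM at P4 and 19170 ± 1292 CPM at P8 (SD, n = 3 each), with no overlap between P0 and P4. In bulk samples such as these, fewer cells of a type and less RNA per cell cannot be told apart. As a share of Calb1, Car8, Pcp2 and Pcp4 summed in the same library, Itpr1 was 3.43%, 3.20% and 3.69% at P0 and 10.4%, 7.86% and 12.6% at P4. This measure was chosen after the values were seen. The fitted rise of Itpr1 was 6.67-fold, against 1.82-fold to 2.69-fold for the genes it was set against. A higher share therefore followed from those folds and is no separate evidence.

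**Figure D2:**
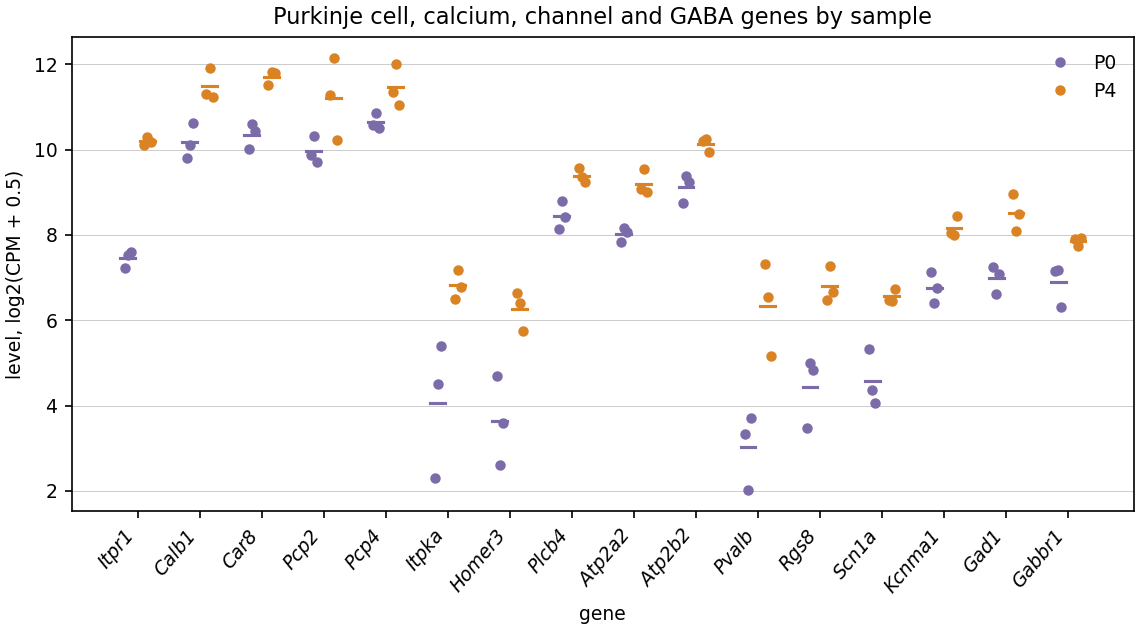
Levels of 16 genes as log2(CPM + 0.5) in the 3 P0 samples (purple points) and the 3 P4 samples (orange points), with a bar at the mean of each age. Itpr1 shows the widest separation relative to its spread, and only Pcp2 among those shown has a P4 sample within its P0 range.

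The list of calcium store and signalling genes held more rising genes than any other list. Of 25 genes tested, 15 rose and none fell (median log2 fold change 1.34), against 1.74% and 0.231% of all genes tested. Every P4 sample lay above every P0 sample in 15 of the 25, 13 of them called, and below in none. Over all genes tested these shares were 9.12% and 6.04%. The list was chosen with earlier results of these data known. Homer3, a postsynaptic scaffold protein that binds the inositol trisphosphate receptor, was at 25.5, 5.54 and 11.5 CPM at P0 and at 98.6, 83.6 and 53.5 CPM at P4 (log2 fold change 2.46, SE 0.39, adjusted p = 0.00352). P0 and P4 did not overlap. Plcb4, the phospholipase that makes inositol trisphosphate downstream of G protein-coupled receptors, was at 354 ± 82.6 CPM and 675 ± 75.7 CPM (log2 fold change 0.93, adjusted p = 0.0351).

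On the store and pump side, Atp2a2, which refills the endoplasmic reticulum, was at 261 ± 29.2 CPM at P0 and 598 ± 129 CPM at P4 (log2 fold change 1.199, adjusted p = 0.00226), and Atp2b2, the plasma membrane calcium pump, was at 567 ± 125 and 1130 ± 130 CPM (log2 fold change 0.99, adjusted p = 0.00767). Both pumps were higher in every P4 sample than in any P0 sample. Ryr1, a ryanodine receptor, was at 2.68, 0 and 2.22 CPM at P0 and at 4.16, 31.6 and 13.7 CPM at P4 (adjusted p = 0.0354). Atp2a3, a second store pump, was at 0.383, 0.594 and 1.21 CPM at P0 and at 29.4, 0.646 and 8.72 CPM at P4 (adjusted p = 0.0324). P4 replicate 2 of Atp2a3 lay within the P0 range. The call of Ryr1 held in 3 and that of Atp2a3 in 2 of the 6 fits without 1 sample. Pvalb, the buffer parvalbumin, was at 9.59, 3.56 and 12.5 CPM at P0 and at 159, 92.7 and 35.6 CPM at P4 (log2 fold change 3.47, SE 0.46, adjusted p = 0.000773), with no overlap, and reached 1324 CPM on average at P8. Rgs8, which shortens G protein signals, was at 10.5, 31.7 and 27.9 CPM at P0 and at 87.8, 155 and 100.3 CPM at P4 (log2 fold change 2.29, SE 0.33, adjusted p = 0.00187). Inpp5a and Itpka, enzymes that remove inositol trisphosphate, rose by 1.44 and 2.33 on the log2 scale (adjusted p = 0.0101 and 0.0183). Of the 15, 10 were called in every fit without 1 sample, and the count ranged from 11 to 14 over those fits. Itpr1, Calb1, Car8 and Pcp2 count in this list as well as among the PC markers. Other tests called 1 gene of the list with the 6 samples alone, 9 with limma-voom and 16 with DESeq2.

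The promoters of 2 of these genes are shown because both hold AGGTCA, the half-site bound by nuclear receptors such as RORA, whose gene is on the list of PC transcription factors below. Windows of 250 bases before the most upstream listed start were read from RefSeq on GRCm38.p6, with the half-site, or its reverse complement TGACCT, in capitals. The windows run 5′ to 3′ on the gene's strand, at chr8:3625548-3625797 (minus strand) for Pcp2 and chr8:70282749-70282998 (plus strand) for Homer3.
Pcp2: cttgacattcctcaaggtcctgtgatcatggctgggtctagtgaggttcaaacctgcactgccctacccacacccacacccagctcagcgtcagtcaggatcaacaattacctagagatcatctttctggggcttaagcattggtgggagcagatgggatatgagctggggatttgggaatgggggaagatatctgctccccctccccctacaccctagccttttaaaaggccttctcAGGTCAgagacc
Homer3: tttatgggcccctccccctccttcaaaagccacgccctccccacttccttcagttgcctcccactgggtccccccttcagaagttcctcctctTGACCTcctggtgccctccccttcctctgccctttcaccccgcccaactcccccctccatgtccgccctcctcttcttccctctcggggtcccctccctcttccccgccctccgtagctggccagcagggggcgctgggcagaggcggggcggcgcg
The half-site began 12 bases before the start of Pcp2 and 157 bases before that of Homer3. Searched on both strands, it was present in 2 of the 10 rising genes of the list that had a window, in 22 of 189 rising genes (11.6%), in 3 of 27 falling genes (11.1%) and in 1039 of the 10496 genes tested that had a window (9.90%). The share among rising genes was thus close to that of all promoters of this length, and a match of 6 letters is a description only. Itpr1, Calb1, Car8 and Atp2a2 had no entry.

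Genes of electrical signalling were raised for some sodium and potassium channel subunits. Of 41 voltage-gated channel genes tested, 6 rose and none fell (median log2 fold change 0.44), against 1.74% and 0.231% of all genes tested. Every P4 sample lay above every P0 sample in 11 of the 41, the 6 included, and below in 1. Over all genes tested these shares were 9.12% and 6.04%. Scn1a, a pore-forming sodium channel subunit, was at 39.5, 20.2 and 16.2 CPM at P0 and at 88.3, 87.7 and 107 CPM at P4 (log2 fold change 1.90, SE 0.30, adjusted p = 0.00394). Kcnip1, a subunit that binds Kv4 potassium channels, was at 124, 50.1 and 40.8 CPM at P0 and at 256, 242 and 270 CPM at P4 (log2 fold change 1.84, SE 0.32, adjusted p = 0.00569). All P4 samples of both genes lay above all P0 samples. Scn2b, Kcnip4 and Kcnma1, the last a large-conductance calcium-activated potassium channel, rose by 1.29, 1.21 and 1.39 on the log2 scale (adjusted p = 0.00221, 0.0328 and 0.00197). The count was 10 without P0 replicate 1, 10 with DESeq2 and 0 with the 6 samples alone.

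Genes of GABA synthesis and signalling included several that rose. Of 22 GABA and chloride genes, 6 rose and none fell (median log2 fold change 0.64), against 1.74% and 0.231% of all genes tested. Every P4 sample lay above every P0 sample in 8 of the 22, the 6 included, and below in none. Over all genes tested these shares were 9.12% and 6.04%. Gad1 and Gad2, which make GABA from glutamate, were at 128 ± 27.6 and 33.1 ± 14.2 CPM at P0 and at 378 ± 113 and 131 ± 63.3 CPM at P4. Their log2 fold changes were 1.56 (SE 0.23, adjusted p = 0.00187) and 1.98 (SE 0.37, adjusted p = 0.00992). Gabbr1 and Abat, a GABA-B receptor subunit and the enzyme that degrades GABA, rose by 0.93 and 0.79 on the log2 scale (adjusted p = 0.022 and 0.0452). The chloride cotransporters gave no call. Slc12a2, which imports chloride, was at 9.59, 62.7 and 46.7 CPM at P0 and at 42.3, 6.85 and 38.8 CPM at P4 (adjusted p = 0.867). Slc12a5, which exports it, was at 41.0, 101.3 and 39.2 CPM and at 64.8, 99.3 and 52.1 CPM (adjusted p = 0.837), so both overlapped between the ages. Without P0 replicate 2, P0 replicate 3, P4 replicate 1 or P4 replicate 2, 4 genes of the list were called, with limma-voom 3 and with the 6 samples alone 0.

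Synaptic genes changed in both directions. Of 26 synaptic vesicle genes, 2 rose and 2 fell (median log2 fold change 0.39, or 0.28 with the gene absent at P0 set at its bound). Snap25, part of the vesicle fusion complex, was at 330, 391 and 354 CPM at P0 and at 983, 994 and 757 CPM at P4 (log2 fold change 1.35, SE 0.16, adjusted p = 0.000298). Syp, a vesicle membrane protein, rose from 98.3 ± 9.53 to 197 ± 22.4 CPM (adjusted p = 0.00618). Syt4, a synaptotagmin, was at 221, 219 and 308 CPM at P0 and at 53.8, 107.5 and 123.4 CPM at P4 (log2 fold change -1.39, SE 0.27, adjusted p = 0.0126), with a mean of 175 CPM at P8. Pclo, the active zone scaffold piccolo, was at 163, 224 and 159 CPM at P0 and at 82.9, 66.8 and 84.1 CPM at P4 (log2 fold change -1.23, SE 0.24, adjusted p = 0.0127). None of these 4 genes overlapped between the ages, and the call of Pclo was lost without P4 replicate 2. Among 30 glutamate receptor and postsynaptic genes (median log2 fold change 0.45, or 0.39 with genes absent at P0 at their bound), 1 rose, Gria3, an AMPA receptor subunit (46.4, 36.4 and 31.1 CPM at P0, 104, 95.8 and 61.0 CPM at P4, adjusted p = 0.0168). The call of Gria3 held in 2 of the 6 fits without 1 sample.

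Energy metabolism genes were mostly higher at P4 but few passed the test. Of 20 glycolysis and lactate genes, 3 rose and 1 fell (median log2 fold change 0.67). Ldhb, the lactate dehydrogenase subunit of oxidative tissues, was at 584, 667 and 560 CPM at P0 and at 1100, 1361 and 1110 CPM at P4 (log2 fold change 0.98, SE 0.21, adjusted p = 0.0222). Eno2, the neuronal enolase, and Slc16a1, a lactate transporter, rose by 1.30 and 1.62 on the log2 scale (adjusted p = 0.0222 and 0.0328). Slc2a1, a glucose transporter best known from brain endothelium and also present in red cells and glia, was at 11.9, 68.9 and 53.8 CPM at P0 and at 2.69, 6.59 and 8.89 CPM at P4 (log2 fold change -2.87, SE 0.71, adjusted p = 0.0478). Every P4 sample of Slc2a1 lay below every P0 sample. No call of this list held in all 6 fits without 1 sample: that of Ldhb held in 3, Eno2 in 2, Slc16a1 in 1 and Slc2a1 in 1. Of 76 nuclear genes of the respiratory chain, 3 rose, Sdhd, Uqcrfs1 and Ndufs8, subunits of complexes II, III and I, by 0.81, 1.05 and 0.89 on the log2 scale (adjusted p = 0.0351, 0.0415 and 0.0428). Their count was 11 without P4 replicate 3, 1 without P4 replicate 1 and 0 without P0 replicate 1, P0 replicate 3 or P4 replicate 2. It was 14 with DESeq2 and 0 with total counts in place of TMM. Fitted differences were positive in 73 of the 76 genes (median 0.50), and in 36 every P4 sample lay above every P0 sample. Over all 14293 genes tested, fitted differences were positive in 7389, and in 1304 (9.12%) every P4 sample lay above every P0 sample. Of 11 mitochondrial genome genes (median log2 fold change 0.52), 1 rose, mt-Co1, a subunit of complex IV, at 4517, 4509 and 3798 CPM at P0 and at 6014, 8387 and 5798 CPM at P4 (log2 fold change 0.65, SE 0.15, adjusted p = 0.0354). Of the 6 fits without 1 sample, only that without P4 replicate 3 called mt-Co1.

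**Figure D3:**
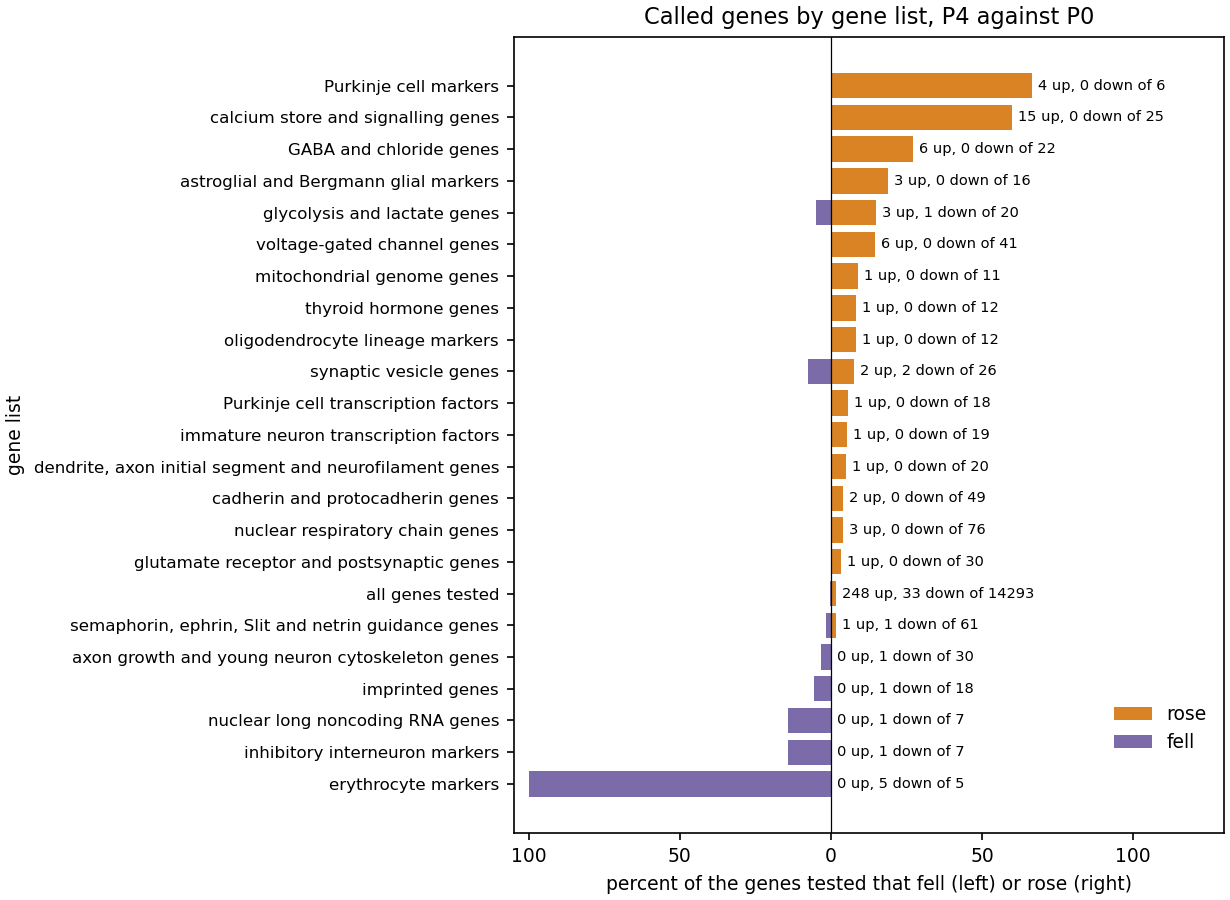
Genes that rose (orange, to the right) or fell (purple, to the left) as a percent of the genes tested in each gene list, with the numbers beside the bars. The PC markers, the calcium store and signalling genes and the GABA genes have the longest bars to the right of the lists with a rise, and the 5 erythrocyte markers fill the bar to the left. The 14 lists without a call are not drawn.

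Genes of growing axons and young neurons tended to be lower at P4, with few calls. Of 30 axon growth and young neuron cytoskeleton genes, none rose and 1 fell. Fitted differences were negative in 22 (median log2 fold change -0.34) and 13 were lower in every P4 sample. Over all 14293 genes tested, fitted differences were negative in 6809, and 863 (6.04%) were lower in every P4 sample. Tubb5, a tubulin of dividing and growing cells, was at 2216, 2621 and 2213 CPM at P0 and at 1314, 1352 and 1657 CPM at P4 (log2 fold change -0.71, SE 0.17, adjusted p = 0.0415). Gap43, the growth cone protein, was at 1121, 974 and 1020 CPM at P0 and at 293, 483 and 584 CPM at P4, and Dcx, a microtubule protein of migrating neurons, was at 594, 764 and 623 CPM and at 360, 527 and 486 CPM. Neither overlapped between the ages, but neither passed the test (adjusted p = 0.158 and 0.284). The number of falling genes on this list was 6 with DESeq2, 7 with limma-voom, 3 without P0 replicate 3 and 0 without P0 replicate 1, P0 replicate 2, P4 replicate 1 or P4 replicate 2. The summed level of the list was 47270 ± 2027 CPM at P0, 34610 ± 2465 CPM at P4 and 25810 ± 775 CPM at P8. Outside this list, Jpt1, a small protein abundant in developing tissue, was at 858, 1049 and 965 CPM at P0 and at 498, 492 and 699 CPM at P4 (log2 fold change -0.77, SE 0.18, adjusted p = 0.0338, called in 2 of the 6 fits without 1 sample). Among 18 imprinted genes (median log2 fold change 0.01) 1 fell, Nnat (GRCm38 chr2:157560078-157562522), which encodes the membrane protein neuronatin of developing neurons. Nnat was at 1076, 959 and 849 CPM at P0 and at 333, 227 and 303 CPM at P4 (log2 fold change -1.74, SE 0.33, adjusted p = 0.0118), without overlap, and it also fell with the 6 samples alone (adjusted p = 0.0289). Its call was lost without P4 replicate 2 (adjusted p = 0.0523). Of 20 dendrite and initial segment genes (median log2 fold change -0.04) 1 rose.

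Transcription factor genes gave few calls. Of 18 PC transcription factors, 1 rose, Klf9, a thyroid hormone target, at 10.4, 13.7 and 12.7 CPM at P0 and at 31.3, 45.3 and 28.2 CPM at P4 (log2 fold change 1.51, SE 0.30, adjusted p = 0.0134). Klf9 was also the 1 gene that rose among 12 thyroid hormone genes, and its call was lost without P0 replicate 1 or P4 replicate 2. Rora, the orphan receptor that PCs need to mature, was at 662, 669 and 639 CPM at P0 and at 803, 759 and 857 CPM at P4, and Foxp2, a factor of young PCs, was at 694, 812 and 724 CPM and at 388, 583 and 552 CPM. Neither gene overlapped between the ages or passed the test (adjusted p = 0.293 and 0.247). Ebf3, a factor of early PC subsets, came close, at 278 ± 40.6 CPM at P0 and 94.4 ± 39.3 CPM at P4 (log2 fold change -1.56, SE 0.39, adjusted p = 0.0503). Of 19 immature neuron factors 1 rose, Id2, an inhibitor of basic helix-loop-helix factors, at 2070, 1324 and 1657 CPM at P0 and at 2619, 3201 and 3006 CPM at P4 (log2 fold change 0.80, SE 0.15, adjusted p = 0.0114). Sox4, which marks newly formed neurons, was at 61.4, 89.5 and 56.8 CPM at P0 and at 24.5, 34.4 and 25.6 CPM at P4 (adjusted p = 0.179). Sox11, a related factor, was below the filter on low counts and was not tested (1.19 ± 0.719 CPM at P0 and 0.225 ± 0.047 CPM at P4). Median log2 fold changes were 0.21 over the PC factors, 0.10 over the immature neuron factors and 0.22 over the thyroid hormone genes.

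Markers of red blood cells were lower at P4. All 5 erythrocyte markers fell (median log2 fold change -2.13), and every P4 sample lay below every P0 sample for each. Over all genes tested these shares were 0.231% and 6.04%. Hbb-bs, an adult beta globin gene at GRCm38 chr7:103826534-103828096, was at 304, 425 and 401 CPM at P0 and at 82.2, 90.7 and 106 CPM at P4 (log2 fold change -2.02, SE 0.30, adjusted p = 0.0022). Hbb-bt, Hba-a1 and Hba-a2 fell by 2.13, 2.09 and 2.63 on the log2 scale (adjusted p = 0.0077, 0.0123 and 0.00629). Alas2, the first enzyme of red cell haem synthesis, was at 4.03, 36.0 and 14.96 CPM at P0 and had no count at P4, at least 107-fold lower against a floor of 3 counts over the 3 P4 libraries, or 55.1-fold without P0 replicate 2. Its call held in 2 of the 6 fits without 1 sample. The split between globin copies is uncertain, since 67.5% of the 50-base stretches of the Hba-a1 transcript were also in Hba-a2 and 65.8% of those of Hbb-bs were also in Hbb-bt. Summed over the list, the level was 804 ± 176 CPM at P0, 181 ± 8.39 CPM at P4 and 430 ± 121 CPM at P8. The part of the mode of capture in this fall cannot be told apart from that of age.

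**Figure D4:**
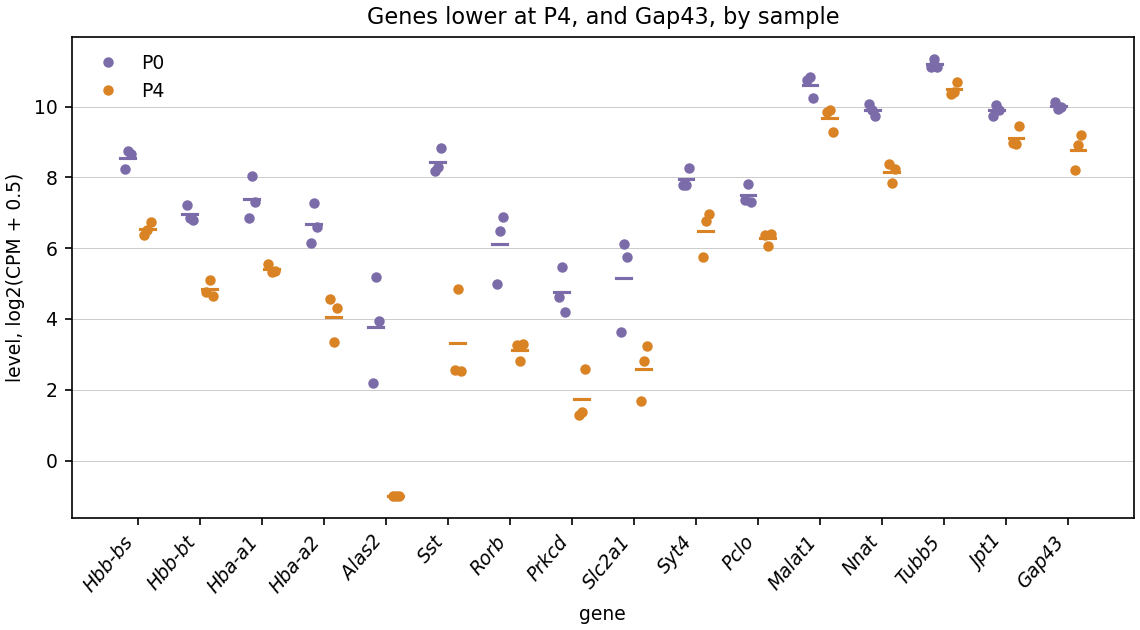
Levels of 16 genes as log2(CPM + 0.5) in the 3 P0 samples (purple points) and the 3 P4 samples (orange points), with a bar at the mean of each age. Every P4 point lies below every P0 point of the same gene. Alas2 has no count at P4, and Gap43 did not pass the test.

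Sst, which encodes the neuropeptide somatostatin and lies at GRCm38 chr16:23889573-23890958, had the largest log2 fold change of the falling genes above 100 CPM at P0. It was at 292, 311 and 455 CPM at P0 and at 5.38, 28.4 and 5.30 CPM at P4, so the ages were clearly apart (log2 fold change -4.73, SE 0.88, adjusted p = 0.00992). At P8 it was at 3.11 CPM. Sst was the 1 falling gene of 7 inhibitory interneuron markers tested (median log2 fold change 0.15), and somatostatin can also be made by young PCs. The other 8 markers of that list summed to 83.8, 102 and 107 CPM at P0 and to 116, 126 and 155 CPM at P4, a sum taken after the values were seen. The whole list, Sst included, went from 450 ± 99.0 to 145 ± 20.97 CPM. Of this list Slc6a12 had no count at P0 and Slc6a5 none at P4.

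Astroglial markers were abundant at both ages, and 3 of 16 rose while none fell (median log2 fold change 0.15). Fitted differences were positive in 8 of the 16 and negative in 8. In every P4 sample 3 were higher and 3 lower than in any P0 sample, against 9.12% and 6.04% of all genes tested. Fabp7 and Slc1a3, the most abundant of Bergmann glia, were at 2831, 2027 and 3180 CPM and at 1332, 1289 and 1685 CPM at P0. At P4 they were at 5252, 5066 and 3199 CPM and at 2584, 1599 and 1508 CPM (adjusted p = 0.146 and 0.383). Gdf10, a further Bergmann glial gene, was at 106, 216 and 345 CPM at P0 and at 231, 215 and 153 CPM at P4 (adjusted p = 0.918). Aqp4, the astroglial water channel, was at 40.1, 67.7 and 111 CPM at P0 and at 630, 266 and 224 CPM at P4 (log2 fold change 2.35, SE 0.41, adjusted p = 0.00595), without overlap, and was the 1 rising gene of this list called in every fit without 1 sample. Apoe and Hopx overlapped between the ages (adjusted p = 0.0351 and 0.0354), and the list had 1 rising gene without P0 replicate 1, P4 replicate 1 or P4 replicate 2. The summed list was at 5612, 5086 and 6994 CPM at P0 and at 10830, 8781 and 6318 CPM at P4, so P4 replicate 3 lay within the P0 range. Aqp4 was 0.962%, 2.04% and 2.29% of the summed Slc1a3 and Fabp7 at P0 and 8.03%, 3.99% and 4.76% at P4. This share was chosen after the values were seen, with Aqp4 called and the other 2 genes not. No gene of this list was at 0 in all samples of either age.

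The remaining marker lists were low in level. Oligodendrocyte lineage markers summed to 55.5 ± 21.9 CPM at P0 and 164 ± 50.2 CPM at P4, and 1 of 12 rose, Cnp, a myelin enzyme also made by precursors (3.45, 8.91 and 28.5 CPM at P0, 53.3, 90.3 and 40.9 CPM at P4, adjusted p = 0.0423, called in 2 of the 6 fits without 1 sample). The median log2 fold change of that list was 1.24, or 1.05 with genes absent at P0 at their bound. Mbp, the major myelin protein, was at 10.2, 7.12 and 6.87 CPM and at 10.03, 17.7 and 10.4 CPM (adjusted p = 0.584), and Mag had no count at either age. Granule cell and progenitor markers summed to 658 ± 124 and 750 ± 245 CPM, with Atoh1 at 0 at both ages and Cbln3 at 0 at P4. Gabra6, a receptor subunit of mature granule cells, was at 0.192, 0 and 0 CPM and at 0.734, 0 and 0 CPM. Excitatory nuclear and unipolar brush neuron markers summed to 43.6 ± 14.1 and 14.5 ± 11.5 CPM. They did not overlap, but only narrowly: the lowest P0 sum was 27.61 CPM and the highest P4 sum 26.99 CPM. Vascular and meningeal markers summed to 189 ± 63.6 and 222 ± 131 CPM, and microglial markers to 13.3 ± 5.71 and 16.4 ± 16.4 CPM. Tbr1 and Meis2 were at 0 at P0 and Lmx1a at P4, Dcn was at 0 at P0, and Tmem119 was at 0 at both ages and Cx3cr1 and C1qc at P4. None of 9 granule cell, 3 excitatory, 10 vascular and 7 microglial markers tested was called by edgeR. Over all 14293 genes tested, 1448 were higher and 675 lower at an unadjusted p below 0.05 (edgeR). At that threshold 1 vascular gene was higher and 1 lower and 1 microglial gene was higher. DESeq2 called 1 vascular gene lower and 1 microglial gene higher. The median log2 fold changes of these 4 lists were 0.23, -1.30, 0.33 and -0.16.

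Across the 9 lists, the sums of 2 were higher in every P4 sample than in any P0 sample, those of 3 were lower and those of 4 overlapped. Of the 3 lower sums, that of inhibitory interneurons was lower through Sst, and its other 8 markers summed higher in every P4 sample. The excitatory sums were low in level and lay apart only by 27.61 against 26.99 CPM. An exact test of 3 against 3 samples cannot give a two-sided p below 0.1, so the sums are given by their values and overlap. The called genes of other cells included the 5 erythrocyte markers, Aqp4, Apoe, Hopx and Cnp. For these and for the PC genes, age and mode of capture cannot be told apart.

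**Figure D5:**
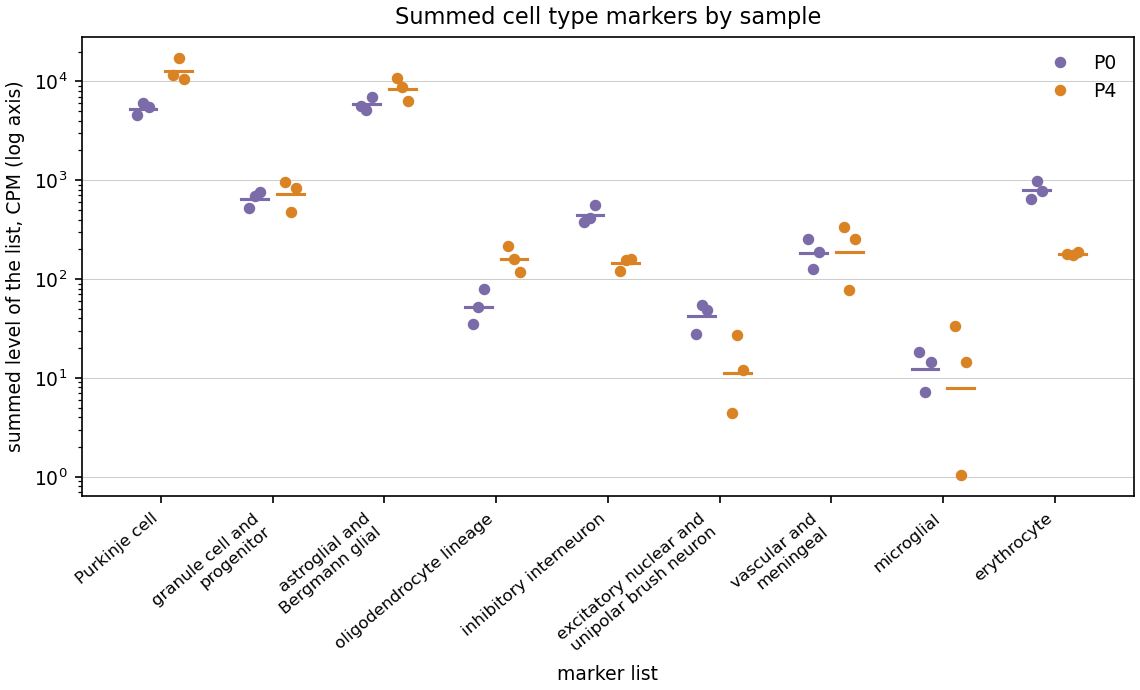
Summed CPM of 9 marker lists (log axis) in the 3 P0 samples (purple points) and the 3 P4 samples (orange points), with a bar at the geometric mean. PC and oligodendrocyte lineage sums lie higher in every P4 sample, erythrocyte, inhibitory interneuron and excitatory sums lie lower, and the astroglial, granule cell, vascular and microglial sums overlap. The inhibitory interneuron sum is lower through Sst, and its other 8 markers sum higher in every P4 sample.

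Several of the largest rises were of genes with no or next to no counts at P0. Klk1, a kallikrein protease, had no count at P0 and was at 60.4, 0.904 and 5.64 CPM at P4, at least 82.3-fold higher against a floor of 3 counts over the 3 P0 libraries. P4 replicate 1 held 247 of its 287 counts at P4, and without that library the bound was 14.9-fold. Npr1, the receptor for atrial natriuretic peptide, had no count at P0 and was at 20.8, 13.8 and 5.13 CPM (at least 63.7-fold higher), and Ptgis, the prostacyclin synthase, had none and was at 22.0, 20.02 and 5.98 CPM (at least 80.3-fold higher). Npr1 and Ptgis were called in all 6 fits without 1 sample and Klk1 in 2 of them. Nupr1, a stress-induced chromatin protein, and Pcdhb12, a clustered protocadherin, were likewise absent at P0 and at least 71.7-fold and 90.4-fold higher, although P4 replicate 3 held 0.171 and 1.03 CPM. The bound of Nupr1 was 26.1-fold without P4 replicate 1 and that of Pcdhb12 36.8-fold without P4 replicate 2. Pcdhb12 and Pcdhb14 were the 2 that rose of 49 cadherin and protocadherin genes (median log2 fold change 0.05), and each was called in 1 of the 6 fits without 1 sample. With 1 count at P0, Trabd2b, a regulator of Wnt proteins, was at 23.5, 12.9 and 13.9 CPM at P4 (ratio 238, 95% counting interval 42.4 to 9450), and Gprc5b, an orphan receptor, was at 25.2, 6.33 and 10.9 CPM (ratio 186, interval 33.0 to 7376). With the genes absent at P0 set at their bound, the median log2 fold change of the rising genes stayed at 1.80. The smallest of these bounds, 6.31-fold, already lay above that median, so the median could not move. Kank4, D630023F18Rik and Alg12 completed the 10 largest rises, with 1, 1 and 2 counts at P0. The call of D630023F18Rik held in none of the 6 fits without 1 sample. These intervals and bounds cover counting error only.

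Among the largest falls, Rorb, an orphan receptor related to Rora, was at 31.1, 89.8 and 118 CPM at P0 and at 9.05, 6.46 and 9.23 CPM at P4 (log2 fold change -3.27, SE 0.56, adjusted p = 0.00512). Prkcd, a protein kinase C isoform, was at 24.2, 43.5 and 17.8 CPM at P0 and at 1.96, 2.07 and 5.47 CPM at P4 (log2 fold change -3.16, SE 0.54, adjusted p = 0.00512). Neither overlapped between the ages, and both held in every fit without 1 sample. Golga3, a Golgi matrix protein, Ncapg2, a condensin subunit, and Plekhg2, an exchange factor for small GTPases, fell by 2.88, 3.64 and 4.94 on the log2 scale (adjusted p = 0.0243, 0.0398 and 0.0415), with calls held in 3, 1 and 1 of the 6 fits. Cep85l, a centrosomal protein needed for neuronal migration, was at 16.3, 10.5 and 3.84 CPM at P0 and had 1 count at P4 (ratio 182, 95% counting interval 32.3 to 7251, adjusted p = 0.0205, called in 4 of the 6 fits). Of 61 guidance genes, 1 rose and 1 fell (median log2 fold change -0.19). Epha7, an ephrin receptor, was at 46.6, 60.8 and 22.2 CPM at P0 and at 189, 92.6 and 187 CPM at P4 (adjusted p = 0.0254), and Sema4f, a semaphorin, was at 28.0, 25.5 and 14.6 CPM and at 2.94, 2.45 and 5.64 CPM (adjusted p = 0.0155). Of the 6 fits without 1 sample, 2 called Epha7 and 4 called Sema4f. Of 7 nuclear long noncoding RNAs (median log2 fold change -0.65) 1 fell, Malat1, at 1733, 1827 and 1217 CPM at P0 and at 922, 958 and 625 CPM at P4 (log2 fold change -0.93, SE 0.22, adjusted p = 0.0354), and it was at 1432 CPM at P8 and was called in 2 of the 6 fits. Malat1 RNA stays in the nucleus. The share of reads without a feature, given above, was also lower at P4, and its part in this change was not tested.

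Cell cycle genes were not called. Of 25 tested none was called by edgeR, with 1 lower at an unadjusted p below 0.05 and 1 lower with DESeq2. Fitted differences were negative in 20 (median log2 fold change -0.47). Over all 14293 genes tested, 675 were lower at an unadjusted p below 0.05 and 6809 fitted differences were negative. Mki67 was at 134, 152 and 81.9 CPM at P0 and at 59.0, 35.0 and 77.4 CPM at P4, and Top2a, which untangles replicated DNA, was at 120, 134 and 174 CPM and at 46.2, 52.8 and 130 CPM (adjusted p = 0.385 and 0.635). The list summed to 1548 ± 218 CPM at P0, 1112 ± 317 CPM at P4 and 506 ± 59.5 CPM at P8.

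No gene was called by edgeR in 9 further lists. Over all 14293 genes tested, 1448 were higher and 675 lower at an unadjusted p below 0.05, and the counts below are to be read against these. In the order median log2 fold change, genes tested, then genes higher and lower at an unadjusted p below 0.05, the reelin pathway that positions PCs gave -0.13, 15, 2 and 2, and sonic hedgehog and trophic factor genes gave -0.46, 20, 2 and 5. Cholesterol synthesis genes gave -0.21, 23, 2 and 3, and immediate early genes -0.35, 11, 0 and 0. Heat shock and unfolded protein genes gave 0.37, 17, 4 and 0, and cytosolic ribosomal protein genes -0.07, 77, 0 and 1. Splicing factors of the hnRNP and SR families gave -0.10, 32, 1 and 3, collagens and laminins 0.14, 36, 4 and 1, and proteasome subunits 0.09, 35, 1 and 0. DESeq2 called 1 higher gene in the reelin list, 1 higher and 1 lower in the sonic hedgehog list, 2 lower among the splicing factors and 1 higher among the collagens and laminins, and none in the other 5.

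Finally, the step from P0 to P4 was set against the step from P4 to P8, between 2 ages both captured as single soma. In the same fit, 126 genes were higher at P8 than at P4 (0.882%) and 36 were lower (0.252%). The difference between the steps was called in 15 genes (0.105%). Since P4 enters both steps with opposite sign, a P4 sample that stands apart moves both, and the count was 1 without P4 replicate 1, 30 without P4 replicate 3 and 31 to 55 without any of the P0 replicates. For Itpr1 the first step, a log2 fold change of 2.74, was larger than the second, 0.96 (SE 0.15), by 1.78 (SE 0.25). Hbb-bs, Prkcd and Ppm1b, a protein phosphatase, fell and then rose, with mean levels of 376, 28.5 and 46.2 CPM at P0, 93.0, 3.16 and 19.7 CPM at P4 and 241, 53.3 and 81.5 CPM at P8. Epha7 rose and then fell, at 43.2, 156 and 36.1 CPM on average. Ptgds, a prostaglandin synthase abundant in meninges, was decided by 1 library: it was at 3.45, 0.198 and 1.62 CPM at P0 and at 2605, 1.94 and 4.45 CPM at P4, and without P4 replicate 1 its log2 fold change was 0.83.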

How the data were processed

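The RNA of captured PCs was isolated with RNeasy Micro, amplified with the SMARTer Ultra Low kit and made into libraries with NEBNext. The authors trimmed reads (cutadapt 1.2.1 per the labels), aligned them to mm10 (GSNAP 2012-07-20) and tallied reads per gene with HTSeq 0.5.3p9, without pooling replicates, and deposited raw counts per gene for each sample. Counting kept only reads lying wholly in annotated features. Amplification precedes sequencing and no molecular identifiers were used, so intervals and bounds cover counting error only.

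The last 5 tally lines of each file were dropped, which leaves 38561 gene identifiers, of which 36723 were found in GENCODE M21 (GRCm38). Genes were tested with edgeR 4.0.16 (R 4.3.3) by quasi-likelihood F test on counts of all 15 samples with age as a factor, TMM scaling, filterByExpr by age and Benjamini-Hochberg adjustment at 0.05. The samples are labelled as separate replicates, 3 per age, and the study calls them biological. Alternatives, 14 in all, were other scalings (RLE, total counts), no filter or at least 1 CPM in 3 of the 6 samples, DESeq2 1.42.0, limma-voom 3.58.1, the 6 samples alone, a replicate block and leaving out each sample. Promoters are from RefSeq on GRCm38.p6, with 10496 of 14293 genes matched.

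The genes named follow a rule: the 10 largest rises and falls without overlap at 10 CPM or more, the 5 most abundant in each direction, up to 3 per list and direction, a set of markers, and calls with a step difference. Other list members were named after their values were seen. The gene lists, markers and comparison were chosen with earlier results of these data known. P14 and P21 were used for the shared spread only. Some genes that the rule names are not reported here.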

Additional observations from a re-analysis of the deposited data

Results flagged for a closer look

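For 10 named genes the change from P4 to P8 differed from that from P0 to P4 (edgeR quasi-likelihood F test of the difference of the steps, Benjamini-Hochberg adjusted p below 0.05). The naming rule chose some of them by this same call, so their number is no result about the named genes. Over all 14293 genes tested, the difference was called in 15 (0.105%). P4 enters both steps with opposite sign, and the count of such genes over all genes tested was 1 without P4 replicate 1. Each value is the log2 step from P4 to P8 minus the log2 step from P0 to P4. For genes at or near 0 counts at 1 age the fitted value depends on the prior count and is no measure of size.

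The later step was lower than the earlier one for Itpr1 (-1.78), Epha7 (-3.97), Trabd2b (-6.48), Plekho2 (-7.02), Npr1 (-10.67), Alg12 (-12.82) and Ptgds (-16.65). Plekho2, a pleckstrin homology protein, was at 0.959, 0 and 0 CPM at P0 and at 29.1, 47.7 and 16.9 CPM at P4. Alg12, a mannosyltransferase, had 2 counts at P0, was at 14.7, 26.6 and 18.1 CPM at P4 and at 0.328 CPM on average at P8. In Ptgds P4 replicate 1 held 2605 CPM and the other two P4 samples 1.94 and 4.45 CPM.

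The later step was higher than the earlier one for Ppm1b (3.27), Hbb-bs (3.39) and Prkcd (7.21), which were lower at P4 than at P0 and P8. The summed erythrocyte markers showed the same order, at 804 CPM at P0, 181 CPM at P4 and 430 CPM at P8.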

How the results depend on the processing

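The number of rising genes was 248 and became 556 with DESeq2 and 3 with the 6 samples alone, where 1009 genes had an unadjusted p below 0.05 in either direction. It was between 167 and 261 when 1 sample was left out. The number of falling genes was 33 and became 216 with DESeq2, 87 with limma-voom and 2 with the 6 samples alone, and was between 19 and 65 when 1 sample was left out. The number of genes whose steps differed was 15 and became 42 without a filter on low counts, 211 with DESeq2 and 39 with limma-voom, and was between 1 and 55 when 1 sample was left out. The cause of these differences between tests was not tested. Other scalings gave 215 rising and 41 falling genes (RLE) and 190 and 43 (total counts), and the median log2 fold change of all genes lay between -0.05 and 0.03 under them. No called value changed direction under any alternative. Of the genes named that were not called, Gdf10, Slc12a2, Slc12a5 and Gabra6 changed sign in at least 1 of the fits without 1 sample. Of the 64 named genes called, 29 were called in all 6 fits without 1 sample, 9 in 3 to 5 of them and 26 in fewer.

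The replicate numbers did not pair the samples: correlations of same-numbered deviations were -0.00927, 0.000485 and -0.00931. With a replicate block, 202 genes rose and 24 fell, of which 190 and 23 were among those called without it, and 12 genes differed between the steps. At total counts of 3805726 to 7814951 per library, a gene with no count in 3 libraries is limited to at most 0.197 CPM at P0 and 0.170 CPM at P4.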

Other observations

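Several rising genes outside the lists belonged to known groups, and they were chosen here after their values were seen. Genes typical of astroglia were among them. Gpr37l1, an orphan receptor of Bergmann glia, was at 4.94 CPM on average at P0, 122 CPM at P4 and 435 CPM at P8 (log2 fold change 4.62, edgeR adjusted p = 0.00419). Slc4a4, a bicarbonate transporter, was at 37.7, 141 and 400 CPM at the same ages, and neither gene overlapped between P0 and P4. S100b, a calcium-binding protein of glia, was at 6.52, 22.0 and 21.2 CPM at P0 and at 181, 87.3 and 20.5 CPM at P4, so P4 replicate 3 lay within the P0 range. The abundant glial genes Slc1a3 and Fabp7 had not passed the test, and 8 of the 16 astroglial markers had a negative fitted difference.

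Of neuronal genes, Gng13, a G protein gamma subunit, was at 2.22 CPM at P0, 37.0 CPM at P4 and 215 CPM at P8 (edgeR adjusted p = 3.95e-05). Tuba4a, a tubulin of mature neurons, was at 28.4, 165 and 374 CPM (adjusted p = 4.85e-05), and Slc24a2, a sodium and calcium exchanger, at 20.6, 105 and 195 CPM (adjusted p = 0.000169). Enzymes of the mitochondrial matrix and malate shuttle included Mdh1 at 587 and 1099 CPM, Got2 at 100.9 and 209 CPM and Pdha1 at 105 and 234 CPM at P0 and P4. Lysosomal genes included Ctsl, a cathepsin, at 96.0 and 178 CPM and Ppt1, a thioesterase lost in a childhood neurodegenerative disease, at 55.9 and 111 CPM.

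Among further falling genes were Cd24a, a surface protein of young neurons, at 350 CPM at P0, 119 CPM at P4 and 52.9 CPM at P8, and Runx1t1, a corepressor, at 256 and 51.1 CPM at P0 and P4. Camsap1, which caps microtubule minus ends, was at 196 and 78.9 CPM. No enrichment was tested for any of these groups.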
